A study of Homo sapiens with 7 samples.

Results

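The genes described here are 10 genes of glycolysis, SLC2A1, HK1, HK2, PFKP, PFKL, ALDOA, GAPDH, ENO1, PKM and LDHA. They were chosen by name out of 20163 protein-coding genes of the GENCODE 44 annotation on hg19. Every interval of the 6 deposited peak lists that lay over a gene or within 10 kb of it was read, 143 intervals in all. HCT116, a human colorectal carcinoma cell line, was grown untreated in 96-well plates to about 200000 cells per well, crosslinked, and sheared in the plate with the PIXUL sonicator for 6 min in 100 µl. Chromatin was then immunoprecipitated with 1 of 7 antibodies, against H3K4me1, H3K4me3, H3K9Ac, H3K27Ac, H3K27me3, H3K36me3 or CTCF, each in a library from a single well. H3K27Ac was not analysed here. All libraries came from 1 cell line in 1 state, so marks and genes could be compared but conditions could not. With 1 library per mark there was no replicate, no value below carries a replicate error, and no test was made.

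Glycolysis splits glucose into pyruvate in the cytoplasm, with a transporter letting glucose in, kinases that trap and prime the sugar, and later enzymes that recover ATP. Lactate dehydrogenase then turns pyruvate into lactate and restores the NAD+ that the pathway needs. Carcinoma cells, those of the colon included, are known for taking up much glucose and releasing lactate even with oxygen at hand. Of the marks, H3K4me3 and H3K9Ac sit at the start sites of genes in use and H3K4me1 flanks them and marks enhancers. H3K36me3 is laid down along transcribed gene bodies, H3K27me3 is the Polycomb mark of silenced genes, and CTCF binds DNA at insulators and loop anchors.

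A fold enrichment is the authors' value of a whole peak over background (input, per the study's methods), on a linear scale, and is compared only within a list. A peak was taken to pass when it met the study's own limits, q under 1e-03 with fold enrichment over 2 for H3K4me1 and H3K27me3 and q under 1e-10 with fold enrichment over 5 for the other 4 lists. These limits kept from 0.225% of the H3K36me3 list to 79.1% of the H3K4me3 list. Of the 7 epithelial and colon markers, 5 had an H3K4me3 peak at the start site, namely EPCAM, CDX2, CDH1, KRT18 and KRT8 at 21.8 to 31.6, while KRT20 and VIL1 had none. PTPRC and CD3E of blood, ALB of liver, MYOD1 of muscle and GFAP of glia had none either.

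The promoters of the 10 genes were read from hg19, from 250 bases before to 50 after the start site of the canonical transcript, on the strand of the gene. Position 0 is the start site and negative positions lie before it. The letters ACGTG and GCGTG, the core of the hypoxia response element, CACGTG, the E-box known to be bound by MYC and MAX, and GGGCGG, the GC box known to be bound by SP1, were searched on both strands. CACGTG contains ACGTG. Glycolytic genes are known to answer to low oxygen by the hypoxia response element. The stretches below are those with its ACGTG form, while its GCGTG form is counted after them but not marked. Capitals mark the motif, with CACGT the reverse complement of ACGTG.
HK2 at -229, chr2:75061014-75061040, plus strand: gccacggaccaCACGTcccatctcagg
HK2 at -48, chr2:75061195-75061221, plus strand: atgggcgtgcgCACGTcactgatccgg
PFKP at 20, chr10:3109749-3109775, plus strand: tgcgcacccggACGTGcggctcccctc
ALDOA at -198, chr16:30076872-30076898, plus strand: gtggtccgagtCACGTccgaggggggt
GAPDH at -124, chr12:6643548-6643574, plus strand: ttttacgggcgCACGTagctcaggcct
LDHA at -185, chr11:18415914-18415941, plus strand: gactcccagcgCACGTGgagcagtctgc
LDHA at -87, chr11:18416012-18416039, plus strand: agcccgactcaCACGTGggttcccgcac
LDHA at -73, chr11:18416026-18416052, plus strand: gtgggttcccgCACGTccgccggcccc
ACGTG stood in the promoters of 5 of the 10 genes, against 23.2% of all coding promoters and 27.1% of those with an H3K4me3 peak at the start site. CACGTG stood only in LDHA, at both sites shown for it, against 8.74% and 10.5%. GCGTG stood in 8 of the 10, all but PFKP and ALDOA, against 44.9% and 54.7%. GGGCGG stood in 8, all but GAPDH and LDHA, against 60.9% and 78.7%. The median GC content of the 10 windows was 70.8%, and that of the 11924 windows with an H3K4me3 peak 67.3% (25th to 75th percentile, 61.3 to 73.7). Every stretch shown lay inside the H3K4me3 peak of its gene. A match of letters is a description of the window and not a measured binding site.

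All 10 genes had peaks of the 3 active marks within 1 kb of the start site, and none had H3K27me3 there. A passing H3K4me3 peak within 1 kb of the canonical start site was found at 10 of 10 genes, against 59.1% of all coding genes (95% Wilson interval 58.5 to 59.8, which covers counting error only). For H3K9Ac the count was 10 of 10 against 58.5%, and for H3K4me1 10 of 10 against 49.1%. For H3K4me1 this held for any overlap with the window, and only 4 of 10 genes had at least 50% of it covered. No passing H3K36me3 peak (0.298% of coding genes), H3K27me3 peak (1.22%) or CTCF peak (13.6%) reached the start-site windows. The H3K4me3 peaks were also higher and wider than those of most genes. Their median fold enrichment was 28.7 (25 to 38.3), against a median of 22.5 over the 11924 coding genes with such a peak (25th to 75th percentile, 17.3 to 27.8), and all 10 lay above that median. Their median width was 3134 bp (2155 to 4920) against 2061 bp, and again all 10 lay above.

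H3K9Ac and H3K4me1 at the same start sites lay above the coding median in most but not all of the genes. The median H3K9Ac fold enrichment was 16 (6.76 to 19.3) against 13.1 over 11797 coding genes with a peak, and 9 of 10 lay above, SLC2A1 being the exception. The H3K9Ac peaks had a median width of 6306 bp against 3112 bp, and 9 of 10 were wider, with HK1 the exception. For H3K4me1 the median fold enrichment was 6.05 (4.46 to 6.82) against 4.69 over 9892 coding genes, and HK2, PFKL and LDHA were the 3 below it. The H3K9Ac peak was a median of 2.05 times as wide as the H3K4me3 peak, against 1.42 times over 11590 coding genes with both (25th to 75th percentile, 1.24 to 1.79). The ratio ran from 1.28 at HK1 to 2.84 at PFKL and 9.39 at SLC2A1.

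**Figure D1:**
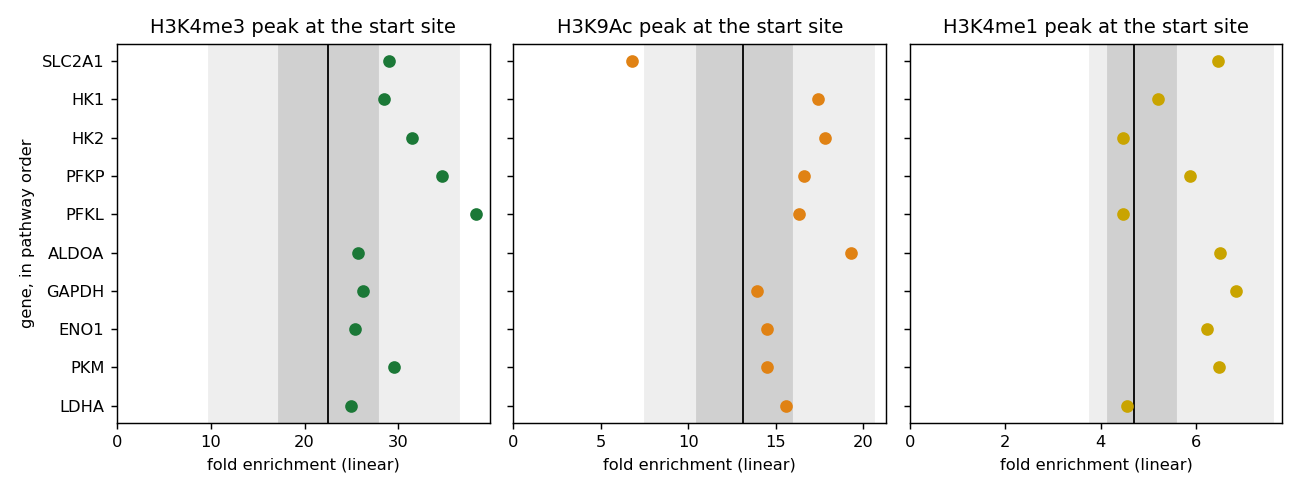
Fold enrichment (linear axis from 0) of the peak at the start site for H3K4me3, H3K9Ac and H3K4me1, 1 dot per gene in pathway order. The line is the median of all coding genes with such a peak, the dark band their 25th to 75th and the light band their 5th to 95th percentile. All 10 H3K4me3 dots lie right of 22.5, and the H3K9Ac dot of SLC2A1 at 6.76 lies left of the light band.

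SLC2A1 encodes GLUT1, the transporter through which most cells take in glucose. The gene (ENSG00000117394, chr1:43391024-43424564, minus strand, 33.5 kb) had an H3K4me3 peak of fold enrichment 29.0, which ranked 2473 among 11924 coding genes and ran from 1276 bp before to 2238 bp after the start site. Its H3K9Ac peak was 33013 bp wide and ran 27833 bp into the gene, with a fold enrichment of 6.76. The H3K4me1 peak was 38714 bp wide, from 10285 bp before to 28428 bp after the start site, with 6.45. By width these ranked 7 among H3K9Ac and 17 among H3K4me1 start-site peaks, so H3K9Ac and H3K4me1 covered most of the gene body while H3K4me3 stayed at its start. The fold enrichment of a peak is a value over its whole width, and the part that width played in the low H3K9Ac value was not tested. At the 3' end of SLC2A1, H3K4me3 at 10, H3K9Ac at 8.12 and H3K4me1 at 4.09 lay over the start of a long noncoding RNA, ENSG00000288955.

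Hexokinases phosphorylate glucose and so keep it in the cell, HK1 being the form of most tissues and HK2 the form of muscle, fat and many tumours. HK1 (ENSG00000156515, chr10:71029740-71161640, plus strand, 132 kb) had its peaks at the canonical start site, 48863 bp inside the annotated gene, and no H3K4me3 peak at the annotated 5' end. The H3K4me3 peak there had a fold enrichment of 28.5, the H3K9Ac peak 17.4 and the H3K4me1 peak 5.19. Of these annotated starts the inner one thus carried the marks. HK2 (ENSG00000159399, chr2:75061254-75120486, plus strand, 59.2 kb) had 31.5 for H3K4me3, 17.8 for H3K9Ac and 4.46 for H3K4me1. The H3K4me3 peaks of both hexokinases, of 2223 and 2445 bp, were narrower than the median of the 10 genes.

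HK2 differed from HK1 inside the gene body. A passing H3K4me1 peak of fold enrichment 7.04 at chr2:75070250-75074099 touched no exon of the canonical transcript, and another of 6.31 at chr2:75090234-75096064 overlapped exon 3. The start-site H3K4me1 peak of the same gene, at 4.46, was lower than either. H3K9Ac intervals of 4.55 and 4.16 lay within these peaks but fell short of the limits, and no H3K4me3 interval lay there. HK1 had 1 passing H3K4me1 peak in the body, of 4.37 at chr10:71085034-71086560, and 1 of 5.77 past its 3' end at a TACR2 transcript start, where a CTCF peak of 13.3 also lay.

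Phosphofructokinase commits the sugar to glycolysis, PFKP being the platelet and PFKL the liver form. Their H3K4me3 peaks were the highest of the 10 genes. PFKL (ENSG00000141959, chr21:45719934-45747259, plus strand, 27.3 kb) reached a fold enrichment of 38.3, which ranked 379 of 11924 and lay above 96.8% of coding genes with a peak, and PFKP (ENSG00000067057, chr10:3108525-3179910, plus strand, 71.4 kb) reached 34.6, at rank 876. Both peaks were below the median width of the 10 genes, 2155 bp at PFKL and 2625 bp at PFKP. H3K9Ac was 16.3 at PFKL and 16.6 at PFKP, and H3K4me1 was 4.47 and 5.87. PFKP also held a passing H3K4me1 peak of 6.70 inside the gene, 11152 bp wide at chr10:3129907-3141058 and free of exons of the canonical transcript. Within it lay H3K9Ac intervals of 3.91 and 4.44 and an H3K4me3 interval of 3.59, none of which passed.

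Aldolase A cuts the phosphorylated sugar into the triose phosphates. ALDOA (ENSG00000149925, chr16:30075485-30081778, plus strand, 6.29 kb) had the highest H3K9Ac value of the 10 genes, 19.3, at rank 968 of 11797, with H3K4me3 at 25.7 and H3K4me1 at 6.5. The gene lay in a dense neighbourhood. PPP4C, the catalytic subunit of protein phosphatase 4, starts 10234 bp downstream and had H3K4me3 at 32.7 and H3K9Ac at 17.7, so the 10 kb around ALDOA held peaks of another promoter. A further H3K4me3 peak of 16.9 upstream lay over starts of TLCD3B and of ENSG00000285043, a coding gene annotated across ALDOA, and signal over ALDOA cannot be told apart from signal of that gene.

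GAPDH and ENO1 act in the energy-yielding part of the pathway, GAPDH oxidising glyceraldehyde phosphate and enolase forming phosphoenolpyruvate. At GAPDH (ENSG00000111640, chr12:6643678-6647540, plus strand, 3.86 kb) H3K4me3 was 26.2 over 4143 bp, H3K9Ac 13.9 over 11590 bp and H3K4me1 6.82, the highest H3K4me1 value among the 10 start-site peaks. The H3K9Ac peak ran from 3629 bp before to 7960 bp after the start site and so covered the whole gene. At ENO1 (ENSG00000074800, chr1:8921059-8939249, minus strand, 18.2 kb) H3K4me3 was 25.4 over 4653 bp, H3K9Ac 14.5 over 9130 bp and H3K4me1 6.23. Both genes had H3K4me3 peaks of moderate height and large width, above the width of 96.9% (GAPDH) and 98.2% (ENO1) of coding genes with a peak. In ENO1 the H3K4me1 peak inside the gene, from 1392 to 7438 bp past the start site, stood at 7.25, above the 6.23 of the start-site peak.

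Pyruvate kinase makes pyruvate and ATP in the last step of the pathway, and lactate dehydrogenase A makes lactate. PKM (ENSG00000067225, chr15:72491370-72524160, minus strand, 32.8 kb) had the widest H3K4me3 peak of the 10 genes, 4920 bp, at width rank 167 of 11924, with a fold enrichment of 29.5. Its H3K9Ac peak (14.5) was 12415 bp wide and reached 9998 bp into the gene. LDHA (ENSG00000134333, chr11:18416107-18429972, plus strand, 13.9 kb) had the lowest H3K4me3 value of the 10, 25, still above that of 61.8% of coding genes with a peak, with H3K9Ac at 15.6 and H3K4me1 at 4.55. Since each value comes from 1 library, neighbours in these orders, such as LDHA, ENO1 and ALDOA at 25, 25.4 and 25.7, could not be told apart beyond an error that is unknown.

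Passing peaks of active marks lay in the upstream flank of PKM and LDHA, and also of ALDOA and ENO1. At ALDOA and ENO1 these were H3K4me1 peaks, of 3.96 (chr16:30072380-30072679) and 5.11 (chr1:8949114-8952020). An H3K9Ac interval of 5.71 that overlapped the ENO1 peak failed the q limit. Upstream of PKM, at chr15:72529201-72530062, lay a passing H3K4me3 peak of 9.68, at rank 11438 of 16112 deposited H3K4me3 intervals, that overlapped no annotated gene and was 5041 bp from the nearest annotated start, that of PKM itself. It was the 1 of 15 passing H3K4me3 peaks around the 10 genes that lay at no annotated start, and it sat within an H3K9Ac peak of 9.71 (chr15:72527482-72532355) and the wide upstream H3K4me1 peak of 6.48. Upstream of LDHA, at chr11:18403643-18407425, an H3K4me1 peak reached 8.08, which ranked 891 of all 50521 deposited H3K4me1 intervals and was the highest H3K4me1 value around the 10 genes. Its H3K9Ac interval, at 5.87, failed the q limit, and no H3K4me3 interval lay there. LDHC, the testis form of the enzyme, starts 17755 bp from the LDHA start. No passing peak of any of the 6 lists lay within 1 kb of the LDHC start. A passing CTCF peak of 8.17 at chr11:18431817-18432340 lay 1525 bp from the nearest annotated start, that of LDHC.

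**Figure D2:**
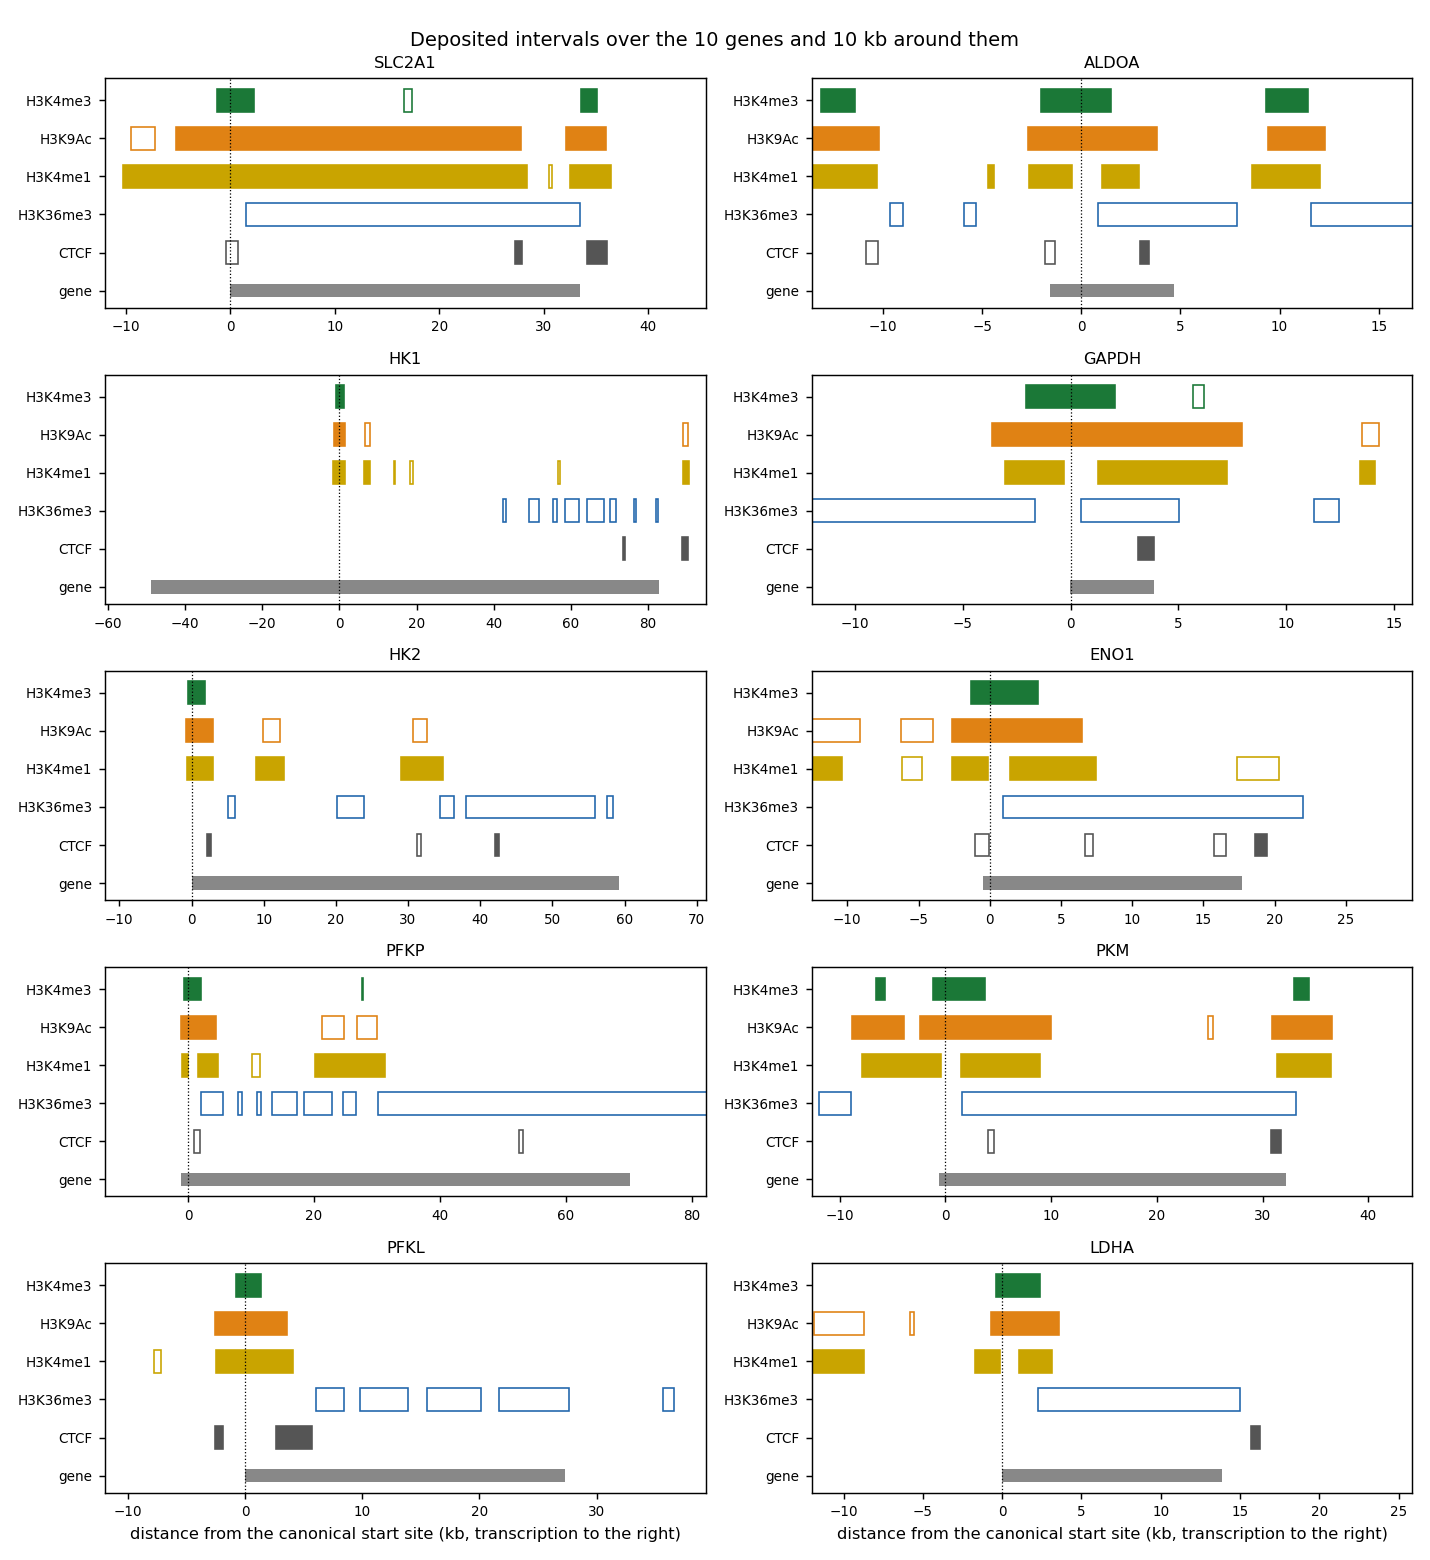
Deposited intervals over each gene and 10 kb on each side, by distance (kb) from the canonical start site with transcription to the right. Filled bars passed the study's limits, open bars did not, intervals are clipped at the window edge, and the grey bar is the annotated gene. All 37 H3K36me3 intervals are open, and no H3K27me3 interval was found, so that mark has no lane.

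The peak lists carry no strand. A long noncoding RNA starts in the start-site H3K4me3 peak, or within 1 kb of it, in 6 of the 10 genes. They are SLC2A1, HK2, PFKP, ALDOA, GAPDH and ENO1, with RNAs such as SLC2A1-DT, HK2-DT, PFKP-DT, GAPDH-DT and ENO1-AS1. PFKP-DT did not overlap the peak of PFKP. In the rest of the 6 the RNA overlapped the peak, and the share of either transcript in it cannot be told apart. In none of the 10 genes did the peak hold the start of another coding gene. Of the 15 passing H3K9Ac peaks around the 10 genes, 10 lay at their own starts, 4 at other annotated starts and 1 in a flank, upstream of PKM. H3K4me1 was the mark with most peaks elsewhere. Of its 29 passing peaks 10 lay at the genes' own starts, 5 at other starts, 9 in gene bodies and 5 in flanks. The 9 include peaks of PFKP, ALDOA, ENO1, PKM and LDHA that begin 1052 to 1555 bp past the start site. The like peak of GAPDH is among those at other starts. Other starts were those of canonical transcripts, so the HK1 peak at a TACR2 transcript start is counted in the flanks.

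H3K4me1 was split around the start site in 6 of the 10 genes, namely PFKP and the 5 from ALDOA to LDHA. In these 6 a passing H3K4me1 peak lay on each side within 3 kb of the start site and none lay over it, a pattern chosen after the intervals were seen. The stretch without H3K4me1 measured 1597 bp at PFKP, 1528 bp at ALDOA and 1586 bp at GAPDH. It measured 1486 bp at ENO1, 1971 bp at PKM and 1206 bp at LDHA. In each of the 6 it held the start site near its upstream edge, the upstream peak ending between -477 bp (ALDOA) and -43 bp (PFKP). In SLC2A1, HK1, HK2 and PFKL a single H3K4me1 peak ran over the start site. Among the 11924 coding genes with an H3K4me3 start-site peak, 11.9% had the split form and 50.2% the covered form, and the median gap was 1580 bp against 1557 bp in the 6. With all deposited intervals the split form was found at 3394 of these coding genes, up from 1423, and again at 6 of the 10 genes.

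**Figure D3:**
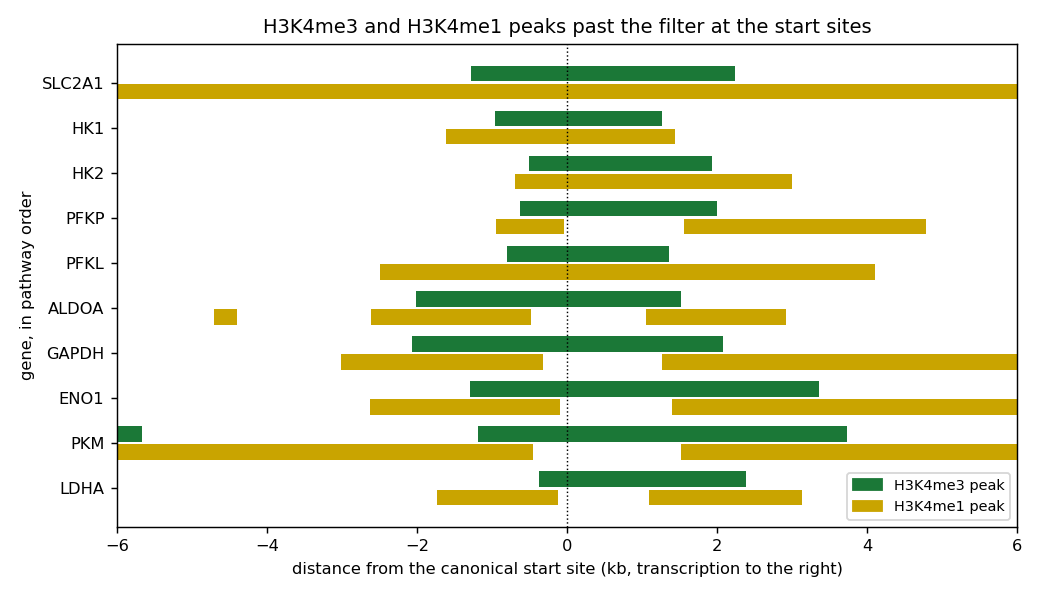
Passing H3K4me3 and H3K4me1 peaks within 6 kb of the canonical start site, by distance (kb) with transcription to the right, 1 row per gene in pathway order. From PFKP to LDHA, PFKL apart, the H3K4me1 bar is broken over the start site by 1206 to 1971 bp, and the H3K4me3 bar spans the break.

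H3K36me3 intervals lay over the bodies of all 10 genes, with the highest fold enrichments over the genes from ALDOA onward. Because the study's limits kept 90 of 40010 H3K36me3 intervals, and none of the 37 around these genes, all deposited intervals were used for this mark. Every gene had at least 1 interval in its body, against 56.3% of all coding genes and 83.9% of those with an H3K4me3 start-site peak. With q under 1e-03 asked of each interval, 7 of 10 genes kept one, against 38.3% of coding genes with an H3K4me3 start-site peak, and HK1, HK2 and PFKL had none. All intervals covered a median of 80.5% of the gene body, against 4.83% over all coding genes and 37.7% over those with an H3K4me3 start-site peak (25th to 75th percentile, 6.53 to 71.2). More than 50% of the body was covered in 8 of 10 genes, against 25.4% of all coding genes and 40.8% of those with the H3K4me3 peak. Among genes with that peak and within 25% of each gene's length, the median coverage ran from 17.7% (HK1) to 60.7% (ENO1). Against these, coverage at SLC2A1, PFKP, GAPDH, ENO1, PKM and LDHA lay above that of 76.6% to 97.8% of genes. At HK1, HK2, PFKL and ALDOA it lay above that of only 41.3% to 58.0%.

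Coverage was 95.4% at SLC2A1, 93.4% at PKM, 92.1% at ENO1, 87.9% at GAPDH and 83.7% at LDHA, in each case as 1 unbroken interval. It was 77.2% at PFKP, 61.7% at PFKL and 61.6% at ALDOA. The hexokinases were lowest, HK2 with 42.7% in 5 intervals and HK1 with 11.2% in 8. In HK1 the first interval began 42518 bp after the canonical start site, so the first part of the transcript had no H3K36me3 interval at all. The annotated HK1 body also includes the 48863 bp before the marked start, which lowers its share.

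The highest fold enrichment in the body separated the genes into a higher and a lower group of 5. It was 6.14 at ENO1, 6.00 at LDHA, 5.85 at PKM, 5.65 at GAPDH and 5.58 at ALDOA. It was 3.90 at SLC2A1, 3.71 at PFKP, 3.62 at PFKL, 3.35 at HK1 and 3.26 at HK2. A fold enrichment over 5, a level chosen after the intervals were seen, was thus reached by 5 of 10, against 2.89% of all coding genes and 4.42% of those with an H3K4me3 start-site peak. The 5 genes from ALDOA to LDHA lay above 97.8% to 99.0% of coding genes with an H3K4me3 start-site peak, whereas the transporter, hexokinases and phosphofructokinases lay above 38.5% to 76.7%. These 5 missed the study's limits through q alone, with -log10 q of 7.17 to 9.08 where 10 was asked.

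Gene length moved with this division, and its part was not tested. The 5 higher genes measured 3.86 to 32.8 kb and the 5 lower ones 27.3 to 132 kb. Against such genes within 25% of their own length, a background added after the intervals were seen, 4 of the higher 5 lay above more than 95%, up to 99.1% at ENO1 and PKM, and ALDOA did not.

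The distance from the H3K4me3 peak to the first H3K36me3 interval varied widely. In SLC2A1, ALDOA, GAPDH, ENO1, PKM and LDHA the first H3K36me3 interval began 464 bp (GAPDH) to 2255 bp (LDHA) after the start site, before the H3K4me3 peak had ended. Such overlap in 6 of 10 genes compared with 16.4% of coding genes with an H3K4me3 start-site peak. In PFKP it began 116 bp after that end, in HK2 3123 bp, in PFKL 4645 bp and in HK1 41258 bp after it. At the other side the interval ran past the annotated gene end by 4293 bp at ENO1, 3165 bp at ALDOA, 1157 bp at GAPDH, 1129 bp at LDHA and 965 bp at PKM. At PFKL the last interval ended 287 bp past the gene. In SLC2A1 the last interval ended at -31 bp from the gene end, in HK1 at -326 bp and in HK2 at -815 bp, so short of it. The last PFKP interval, 73315 bp wide, ran 33255 bp past the gene into PITRM1, so that part of the coverage of PFKP came from an interval that 2 genes share. The GAPDH interval also overlapped the coding gene IFFO1, and the ALDOA interval the coding gene ENSG00000285043.

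**Figure D4:**
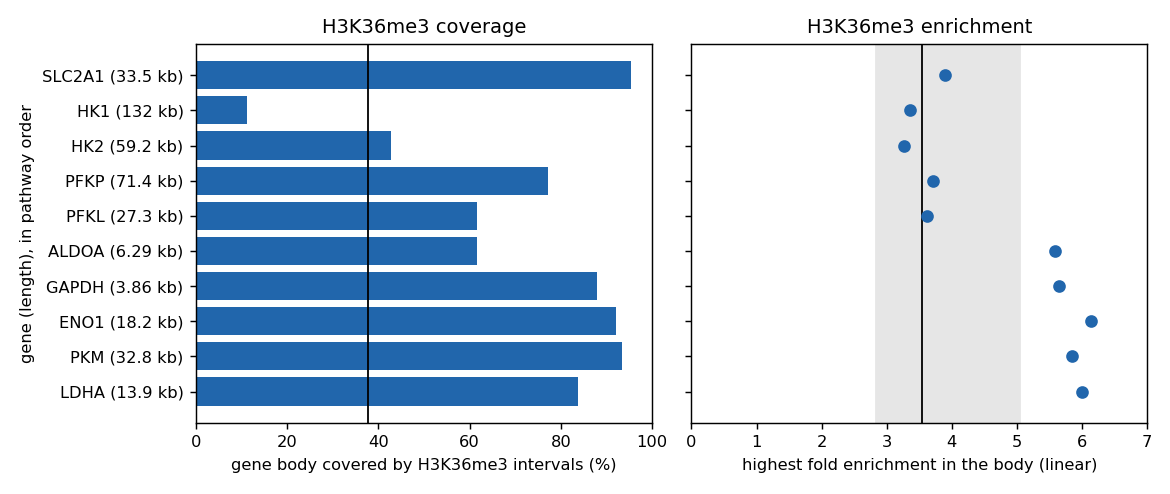
H3K36me3 over the gene bodies, with gene length in the labels. Left, the percent of the body under any deposited interval, with the line at 37.7%, the median of coding genes with an H3K4me3 start-site peak. Right, the highest fold enrichment in the body (linear), with the line at the median of the same genes with an interval, 3.54, and the band from their 5th to 95th percentile, 2.84 to 5.05. ALDOA, GAPDH, ENO1, PKM and LDHA lie right of the band.

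H3K27me3 was not found at any of the genes. No interval of this list, even unfiltered, lay over a gene body or within 10 kb of it in 10 of 10 genes. Among all coding genes 30.0% had such an interval (3.94% a passing one), and among those with an H3K4me3 start-site peak 19.2% had one (2.05% a passing one). The peak names inside the H3K27me3 list were the only ones that did not carry the name of the cell line, and the list was taken as labelled. The depth of the libraries is unknown, so a weaker signal was not detectable here.

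No passing CTCF peak lay at the 10 start sites, and most genes had one elsewhere, in shares not far from those of other genes. At least 1 passing CTCF peak lay over the gene or within 10 kb in 9 of 10 genes, against 62.4% of coding genes and 69.0% of those with an H3K4me3 start-site peak, and an interval of any kind in all 10, against 78.9%. PFKP was the gene without a passing peak, its intervals of 5.10 and 6.25 failing the q limit. Of 13 passing peaks 7 lay in gene bodies, 4 in flanks and 2 at the starts of noncoding RNAs. The 3 highest lay at or past 3' ends. Besides the 13.3 past HK1, GAPDH had 13.8 at chr12:6646807-6647546, over exons 8 and 9, PKM 13.8 at chr15:72491839-72492762, over exon 11. PFKL had 12.7 just upstream of its promoter, at chr21:45717315-45718018, and 7.76 inside the gene, and HK1 had 12.1 in its body at chr10:71152105-71152791 with no exon under it.

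The CTCF core sequence, a motif of 12 bases, was read under each peak on both strands, in hg19. It was present without mismatch in 2 of the 13 passing peaks, against 22.4% of all 24536 passing CTCF peaks. With up to 1 mismatch it was present in 9 of 13, against 65.9%. Both exact matches are shown on the minus strand with 9 bases on each side, the core in capitals.
PFKL, core at chr21:45725008-45725019: ttccagagcCCAGCAGGTGGCagcagagcc
GAPDH, core at chr12:6647212-6647223: ctgagccagCCACCAGAGGGCgccagaccc
PFKL carried its exact core under the lower of its 2 CTCF peaks, while the peak of 12.7 held none with up to 1 mismatch. The lower peak was 3084 bp wide and the peak of 12.7 704 bp, and the part that width played was not tested. At GAPDH the core lay in the last part of the gene, on the strand opposite to the gene.

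The remaining genes of the pathway were read from lists by role. Placing a gene in a list was a choice, since ALDOC and SLC2A3 were put with the broadly expressed genes and ENO2 with the restricted ones. Of 16 other broadly expressed glycolysis genes, 13 had an H3K4me3 start-site peak (81.2%), 13 an H3K9Ac peak and 12 an H3K4me1 peak. Among all coding genes the shares were 59.1%, 58.5% and 49.1%. The counts of the list depended on the start site used. With the annotated 5' end, 9 of the 16 had an H3K4me3 peak and 9 an H3K9Ac peak. Of 20163 coding genes 11369 had H3K4me3 there and 11335 H3K9Ac, shares close to those of the list. Their median H3K4me3 fold enrichment was 22.8, from 11.3 at BPGM, which makes the bisphosphoglycerate that tunes haemoglobin, to 45.6 at SLC16A3, which exports lactate. TPI1, the triose isomerase, stood at 37.4, while PGK1, the first ATP-making kinase of the pathway, stood at 12.1. ALDOC, HKDC1 and SLC2A3, the brain aldolase, a hexokinase domain protein and the neuronal glucose transporter GLUT3, had no H3K4me3 interval within 1 kb of the start site. ALDOC and HKDC1 did have H3K4me1 peaks, of 5.55 and 4.48, whereas SLC2A3 had no interval of any of the 6 lists within 1 kb of its start site. The H3K4me3 peaks of LDHB and PFKFB2 also held another coding start, of ENSG00000285854 and YOD1, so these 2 of the 13 cannot be assigned to 1 gene.

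Of 16 tissue-restricted isozymes and transporters, 3 had an H3K4me3 start-site peak (18.8%), below the 59.1% of all coding genes. They were ENO2, the neuronal enolase, at 12.7, SLC2A4, the insulin-responsive transporter, at 7.65, and ENO3, the muscle enolase, at 27.6. The ENO3 peak ran from -4698 to 83 bp around its start and also held the start of PFN1, the actin-binding profilin, so it cannot be assigned to ENO3. No gene of either list had a passing H3K36me3 or H3K27me3 peak at its start, where only 0.298% and 1.22% of all coding genes had one. Passing CTCF peaks lay at the starts of 5 of the 16 broadly expressed genes and 1 of the 16 restricted ones, beside 13.6% of all coding genes. Isozymes with an H3K4me3 start-site peak and isozymes without one thus stood side by side within a step, as ALDOA at 25.7 beside ALDOC, and SLC2A1 at 29.0 beside SLC2A3.

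**Figure D5:**
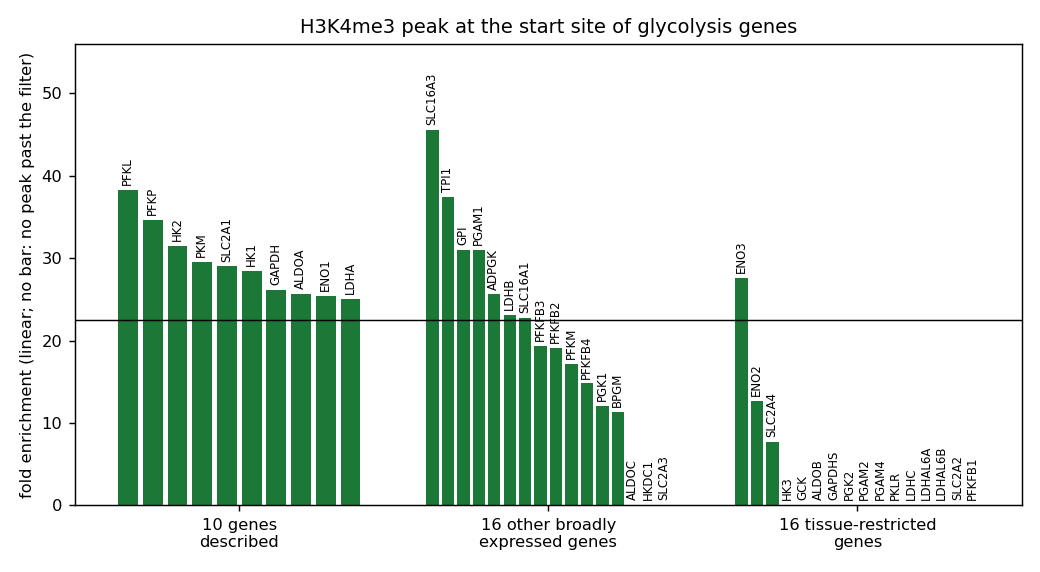
H3K4me3 fold enrichment (linear, bars from 0) of the start-site peak for the 10 genes described, 16 other broadly expressed and 16 tissue-restricted glycolysis genes. The line is the median of all coding genes with a peak, 22.5. All 10 genes lie above it, 13 of the 16 broadly expressed genes have a bar, and 3 of the 16 restricted genes do.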

How the data were processed

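Libraries were grouped by the antibody in their labels. Reads were aligned by the authors to hg19 with BWA 0.7.12, and broad peaks were called per library (broad cutoff 0.1). The study's methods name MACS2, whereas the submitters' processing notes list MACS 1.4.2. The labels give paired or single-end reads, the methods paired. The authors deposited, for each interval, a fold enrichment (a ratio), a -log10 p-value and a -log10 q-value, before the study's later limits and without counts, so depth is unknown. PCR duplicates were removable by molecular identifiers.

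The 6 lists were read on GENCODE 44 (hg19), with the canonical start site or, for 282 of 20163 coding genes that lacked one, the annotated 5' end. A start-site peak overlapped 1 kb on each side by at least 1 base, and the peak of highest fold enrichment was taken. A broad peak's value covers its whole width. Sequences came from the GRCh37 primary assembly. Genes named were the 10 genes, list members by H3K4me3 peak, coding neighbours starting within 10 kb, and cell type markers, of which 1 is not reported here. TLCD3B, ENSG00000285043, TACR2, PITRM1, IFFO1, PFN1, TPI1, PGK1, LDHB, PFKFB2, YOD1 and the noncoding genes were named after their values were seen. Members and lists were chosen with earlier results of these data known. Peak assignment was tested on simulated data, where 200 of 200 planted intervals were recovered over 20163 genes, and against bedtools 2.31.1, where 0 of 120978 windows differed. Python 3.11.15, pandas 2.3.3 and pysam 0.24.0 were used. Alternatives were other limits, windows, start sites, flanks, backgrounds and motif settings.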

Additional observations from a re-analysis of the deposited data

How the results depend on the processing

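With 1 library per mark and unknown depth, no error between samples could be given, and each alternative changed only how the lists were read. No paired analysis was possible because no mark was measured in more than 1 library. Of 189 recomputed values 159 stayed close (a count within 1.5 times, a share of coding genes within its 95% interval, a median within the spread of the genes), and the rest moved as follows. With all deposited intervals, start-site windows of the 10 genes held H3K36me3 in 3 and CTCF in 3, H3K36me3 appeared at 5 broadly expressed and 1 restricted gene and H3K27me3 at 1 restricted gene. Coding genes then numbered 1309 for H3K36me3, 1936 for H3K27me3 and 5940 for CTCF, the intervals around the 10 genes 28 for H3K9Ac, 37 for H3K36me3 and 23 for CTCF, and coding genes with split H3K4me1 3394, as more intervals were read. With 50% of the window covered, H3K4me1 remained at 4 of the 10 genes and 6526 coding genes, H3K36me3 at 1 and CTCF at 1083. A fold limit 1.5 times higher left H3K36me3 at 21 coding genes and CTCF at 3 broadly expressed genes, and a window of 500 bp left H3K36me3 at 13. With 2 kb CTCF was at 1 of the 10 and 2 restricted genes, and with the annotated 5' end at 3 broadly expressed and 2 restricted ones. That end left 9 of the 10 genes with H3K4me3, H3K9Ac and H3K4me1, HK1 being lost. It also left H3K4me3 and H3K9Ac each at 9 of the 16 broadly expressed genes, and put each at 4 restricted ones. On the genes' own chromosomes the coding shares were 0.221% for H3K36me3 and 14.1% for CTCF. Without flanks 8 CTCF peaks were left. Over genes with an H3K4me3 start-site peak the median H3K36me3 coverage was 37.7%. With 1 mismatch 9 CTCF peaks held the core, and within 500 bases on each side ACGTG stood at 8 and CACGTG at 3 of the 10 genes, against 52.9% and 18.2% of coding genes. Above 95% of genes of similar length in H3K36me3 lay 4 genes, not 5. The split H3K4me1 form and the H3K36me3 level over 5, with their alternatives, were added after the data were seen.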

Other observations

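The annotation names 83 pseudogenes after the 10 genes, of which 65 belong to GAPDH. No H3K4me3 interval, passing or not, lay over any of the 83, against 2.15% of the 10587 processed pseudogenes in the annotation. Counting all deposited intervals, H3K9Ac lay over 1 (3.40% of processed pseudogenes), H3K4me1 over 3 (4.06%), H3K36me3 over 1 (7.92%), H3K27me3 over 7 (7.91%) and CTCF over 3 (3.42%).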
